A study of Mus musculus with 8 samples.

Results

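Transiently open regions were defined as stretches of chromatin with an ATAC-seq peak 30 min or 1 h after Ikaros was sent into the nucleus and with none before induction or at 2 h. Overlapping peaks of all 8 peak lists were merged into 174718 regions. A region was selected if neither list of 0 h nor either list of 2 h held a peak in it and both lists of 30 min or both lists of 1 h did. The members were thus chosen by the presence of called peaks in the lists. This rule found 2316 regions, 1.33% of all regions. Of these, 874 had a peak in both lists of 30 min but not of 1 h, 1287 in both lists of 1 h but not of 30 min, and 155 in all 4 lists of these times. Their number and their time course follow from that choice, so both are a description and carry no test.

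The cells were B3, a mouse pre-B cell line. Cells of every group, the untreated ones included, had been transduced with Ikaros-ERt2, in which Ikaros (IKZF1) is joined to a hormone-binding domain that holds it outside the nucleus until 4-hydroxytamoxifen (4-OHT) is given. The groups, of 2 replicates each, were untreated cells (0 h) and cells kept for 30 min, 1 h or 2 h with 4-OHT at 500 nM. The labels give the 0 h cells no treatment and name no vehicle control, so the drug, a vehicle and Ikaros cannot be told apart, and no source used here says that replicates were separate cultures.

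Ikaros is a zinc finger transcription factor that lymphocytes need for their development, and its loss is a frequent event in pre-B cell leukaemia. It binds DNA through words built around GGGA and GGAA, and it recruits the NuRD complex, which combines a nucleosome remodeller with histone deacetylases. ATAC-seq reads accessibility from where the Tn5 transposase inserts adapters into DNA that is not wrapped in nucleosomes. Accessibility that comes and goes within hours is known from stimulated cells, where regulatory elements near induced genes can open briefly.

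The lists held 85903 to 103897 peaks, and the median peak of a list had 11 to 14 fragments at its summit. The local background of a library, which stands for its depth, was 0.26 to 0.405 fragments per base, and replicate 1 was deeper than replicate 2 at each of the 4 times. Promoters of B-lineage genes had a peak in both 0 h lists for 8 of 10 genes, against 2 of 8 T-lineage and 1 of 8 myeloid genes.

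Sequences of the 2 strongest regions of each class are shown because strength is the basis of the ranking used below. Each is 150 bp of the plus strand of GRCm38 (RefSeq) around the summit, 5′ to 3′, and capitals mark the Ikaros core words GGAA and GGGA and their reverse complements, which may overlap.
Nos1 intron, both 30 min lists, chr5:117884639-117884788: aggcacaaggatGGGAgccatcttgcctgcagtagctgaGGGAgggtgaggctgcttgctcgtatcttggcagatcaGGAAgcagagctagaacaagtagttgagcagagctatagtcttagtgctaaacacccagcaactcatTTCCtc
Cd180 intron, both 30 min lists, chr13:102700857-102701006: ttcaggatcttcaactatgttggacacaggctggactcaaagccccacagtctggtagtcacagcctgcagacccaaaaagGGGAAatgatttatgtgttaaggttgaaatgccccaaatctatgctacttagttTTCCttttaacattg
N4bp1 intron, both 1 h lists, chr8:86812247-86812396: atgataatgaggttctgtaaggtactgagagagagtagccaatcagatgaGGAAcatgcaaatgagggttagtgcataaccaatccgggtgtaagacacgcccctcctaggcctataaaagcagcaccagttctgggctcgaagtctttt
intergenic near Scp2-ps1, both 1 h lists, chr3:155400024-155400173: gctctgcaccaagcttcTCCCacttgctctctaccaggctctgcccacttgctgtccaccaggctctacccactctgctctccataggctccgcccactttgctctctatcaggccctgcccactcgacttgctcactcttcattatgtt
Pnisr intron, all 4 lists, chr4:21865294-21865443: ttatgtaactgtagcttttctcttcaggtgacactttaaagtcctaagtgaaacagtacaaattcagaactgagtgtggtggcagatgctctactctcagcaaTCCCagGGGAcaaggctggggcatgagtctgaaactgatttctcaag
upstream of Fut7, all 4 lists, chr2:25413528-25413677: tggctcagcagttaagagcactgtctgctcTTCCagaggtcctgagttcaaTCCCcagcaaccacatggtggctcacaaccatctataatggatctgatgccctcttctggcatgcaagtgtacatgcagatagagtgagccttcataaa

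The Nos1 stretch held 4 core words and the Cd180 stretch 3. The N4bp1 stretch and the one near Scp2-ps1, whose start site was 114342 bp away, held 1 each. The Pnisr and Fut7 stretches held 2 each. The N4bp1 window of 200 bp around the summit lay to 100% and the Fut7 window to 98.5% in DNA that RefSeq masks as repeat. The masked share was 0% at Cd180, 5% near Scp2-ps1, 12% at Nos1 and 14.5% at Pnisr. The 2 stretches of the 30 min class held the most core words of these 6.

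The number of transiently open regions was set beside the same rule with replicate numbers crossed between times. Among regions with no peak at 0 h and 2 h, both 30 min lists shared 1029 and both 1 h lists shared 1442. The pair of 30 min replicate 1 with 1 h replicate 2 shared 1127, and 30 min replicate 2 with 1 h replicate 1 shared 1025. The crossed rule, which asks for either of these mixed pairs, found 1997 regions, against the 2316 of the rule itself. Of the 1997, 975 were transiently open regions as well (48.8% of the crossed set, 42.1% of the transiently open regions) and 1022 were not. Pairs with the same number shared 1513 (replicate 1) and 769 (replicate 2). Pairs of 1 time point thus fell inside the range of pairs that mix times, and the crossed count was close to the direct one. A region open at both 30 min and 1 h can meet both rules. The crossed count is therefore not the number to be found without transient opening, and its closeness cannot decide whether regions opened briefly. When each qualifying peak needed a −log10 q of at least 5, 405 transiently open regions were left. The crossed rule was not counted at this cut, so the 405 have no number to stand beside.

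**Figure D1:**
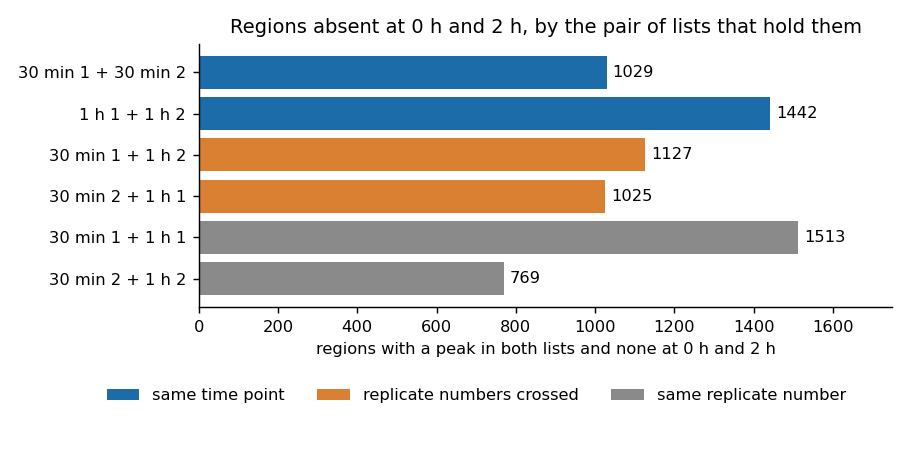
Number of regions (x axis) with a peak in both lists of a pair and none in the 4 lists of 0 h and 2 h, for the 6 pairs of 30 min and 1 h lists. The pairs from 1 time point (1029 and 1442) lie between the lowest (769) and the highest (1513) of the pairs that mix times.

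Most regions absent at 0 h and 2 h were seen once. Of 23818 such regions, 19328 had a peak in 1 list only. A stricter view takes regions with a peak in exactly 2 of the 8 lists. The 30 min pair held 517 of these and the 1 h pair 824, while the 4 pairs that join 30 min with 1 h held 294 to 858. The 0 h pair held 5793 and the 2 h pair 1884, and the 24 pairs of lists from different times had a median of 438. Replicates of 0 h and of 2 h thus shared more regions with each other than with any list of another time, and those of 30 min and 1 h did not.

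The reverse pattern was counted in the same way. A peak in both lists of 0 h or both of 2 h, with none in the 4 lists of 30 min and 1 h, was found in 8362 regions, of which 6226 qualified at 0 h alone, 2089 at 2 h alone and 47 at both. Regions that were absent at 0 h and then present in all 6 treated lists numbered 3844. Of 7527 regions with no 0 h peak and a peak in both 30 min lists, 13.7% had none at 2 h, 21.4% had 1 and 65.0% had 2. Of 13007 such regions at 1 h, 11.1% had no peak at 2 h and 65.2% had 2. Among the 4628 with a peak in all 4 middle lists, 3.35% had no peak at 2 h and 83.1% had 2. Regions that opened in both lists of an early time therefore mostly still had a peak at 2 h, and those without one were the smallest share.

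Detection was also read in lists that took no part in a choice, although peaks of all 8 lists had set the bounds of the regions. Regions were first chosen in the 4 lists of replicate 1 (a peak at 30 min or 1 h, none at 0 h and 2 h, n = 23290) and read in replicate 2. There, 9.10% had a peak before 4-OHT, 14.5% after 30 min, 19.3% after 1 h and 22.4% after 2 h. Chosen in replicate 2 (n = 18375) and read in replicate 1, the shares were 18% before 4-OHT, 29.4% after 30 min, 33.0% after 1 h and 32.9% after 2 h. Over all regions, the replicate 2 lists held 48.3%, 48.9%, 52.3% and 55.4%, and the replicate 1 lists 52.8%, 55.8%, 58.1% and 58.2%, in the order of time. The rise from 0 h to 30 min was seen in both readings. The local background, which stands for depth, rose as well in the replicate 2 lists, from 0.26 at 0 h to 0.305, 0.312 and 0.317. In the replicate 1 lists it was 0.389, 0.405, 0.366 and 0.337 in the order of time. The part of depth in these shares was not tested. A fall from 1 h to 2 h was not seen in replicate 2 and replicate 1 fell by 0.109 percentage points.

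**Figure D2:**
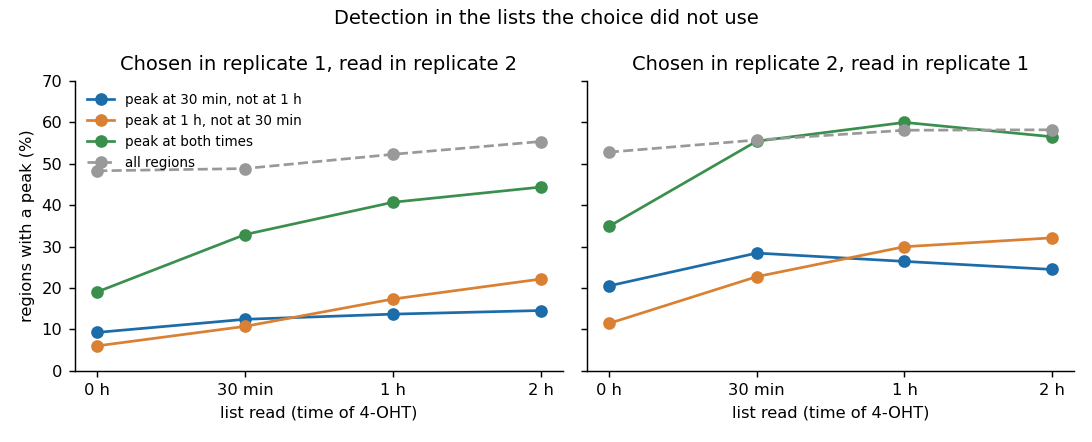
Share of regions with a peak (y axis, %) in the 4 lists of the replicate number that was not used to choose them, by time of 4-OHT (x axis). Lines show regions chosen with a peak at 30 min alone, at 1 h alone or at both, and all regions (dashed), and in the right panel those chosen at both times go from 60.0% at 1 h to 56.5% at 2 h, while in the left panel no line falls at 2 h.

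Regions with a peak at 30 min but not at 1 h in replicate 2 (n = 6516) were detected in replicate 1 at 28.4% at 30 min, 26.4% at 1 h and 24.5% at 2 h, against 20.5% at 0 h. The same class chosen in replicate 1 (n = 8811) gave 12.4%, 13.7% and 14.6% in replicate 2, against 9.27% at 0 h, so the direction after 30 min differed between the readings. Regions with a peak at 1 h but not at 30 min rose to 2 h in both readings, from 17.3% to 22.2% in replicate 2 and from 30.0% to 32.1% in replicate 1. Each reading rests on 1 library per time, so no test was made.

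A second reading left out 1 list at a time. Regions in both lists of 30 min or of 1 h and in none of the other 3 lists of 0 h and 2 h had a peak in 50.4% of 4668 cases in 2 h replicate 1 and in 42.6% of 4032 cases in 2 h replicate 2. The shares were 27.4% of 3189 in 0 h replicate 1 and 16.1% of 2760 in 0 h replicate 2. Without the conditions on absence, the shares were 87.4% and 85.4% at 2 h and 76.7% and 71.6% at 0 h. A 2 h list that took no part in the choice therefore showed a peak in a larger share of these regions than a 0 h list did.

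The regions just outside the rule are those that had a peak in the list left out above, so their counts repeat that reading. Their extra peak was more often at 2 h than at 0 h, and the part of depth was not tested. In both lists of 30 min or of 1 h, and in exactly 1 list of 0 h or 2 h, were 5385 regions. The single peak was in 2 h replicate 1 for 2352 and in 2 h replicate 2 for 1716, with medians of 8 and 7 fragments. It was in 0 h replicate 1 for 873 and in 0 h replicate 2 for 444, with medians of 8 and 5 fragments. On the other side, 21502 regions were absent at 0 h and 2 h and had peaks at 30 min or 1 h but not in both lists of either, and the highest peak of these had a median of 6 fragments, against 8 in the transiently open regions.

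Transiently open regions were weak. The median peak in them had 7 fragments at its summit in each of the 4 lists, within 4 to 28 in 30 min replicate 1, 4 to 26 in 30 min replicate 2 and 4 to 29 in both 1 h lists. The lowest value that any peak of these lists had was also 4. A peak of at least 10 fragments was held by 29.6% of these regions' peaks in 30 min replicate 1 against 64.4% of all peaks of that list, by 21.1% against 62.9% in 30 min replicate 2, by 21.9% against 63.5% in 1 h replicate 1, and by 19.0% against 63.9% in 1 h replicate 2. At least 10 fragments in every qualifying list were held by 346 regions (14.9%), at least 15 by 58 and at least 20 by 6. A low count leaves a wide counting error, so a peak of 7 fragments that is missing from another list was not shown to be absent there at this depth.

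**Figure D3:**
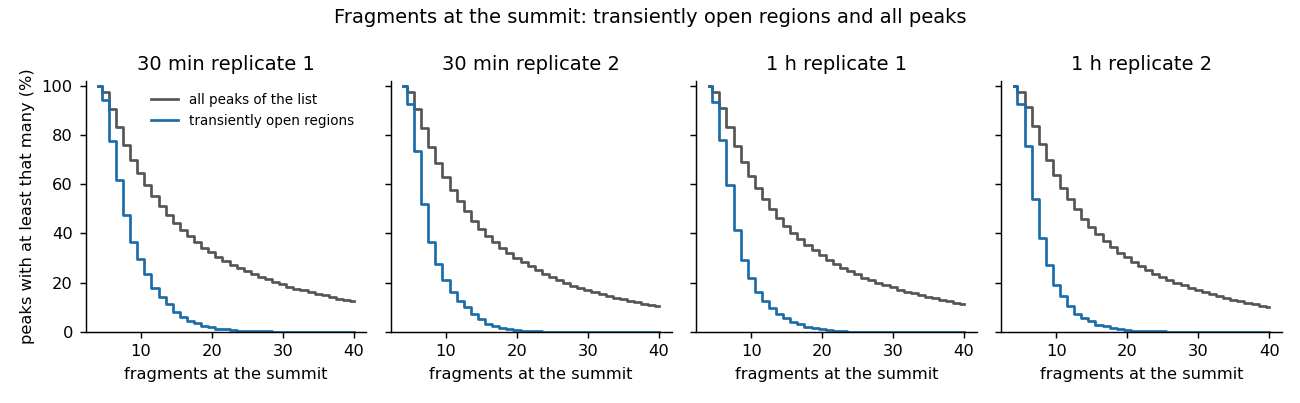
Share of peaks (y axis, %) with at least the given number of fragments at the summit (x axis) in the 4 lists of 30 min and 1 h, for all peaks and for those in transiently open regions. The curve of the transiently open regions falls faster in each list, to 19.0% to 29.6% at 10 fragments, where all peaks are at 62.9% to 64.4%.

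Strength was also expressed as the percentile of a peak's fold over background among all peaks of its own list. The median over transiently open regions was at percentile 19.7 over the qualifying lists, the highest at 61.1, and 19 regions (0.82%) reached percentile 50. Among regions with a −log10 q of at least 5 in every qualifying list, a cut that itself keeps strong peaks, the median was 36.4. By this measure, regions in all 4 lists (median percentile 23.0, 7.75 fragments) were above those seen in exactly the 2 lists of 30 min (17.1, 6.5 fragments) or of 1 h (17.6, 6.5 fragments). Regions that opened and kept a peak to 2 h had a median of 11.3 fragments at percentile 42.6, and those of the reverse pattern 7.5 fragments at percentile 28.5. Regions of the crossed rule alone had 6.5 fragments at percentile 17.1, and regions with a peak in exactly 2 of the 8 lists 6.5 fragments at percentile 21.6. Widths had a median of 106 bp, from 62 to 348 bp, against 130 bp over all regions and 230 bp for the 47875 regions found in all 8 lists.

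The strongest regions that qualified at 30 min lay in introns of genes of varied function or between genes. In an intron of Nos1 (chr5:117884662-117884796), which encodes a nitric oxide synthase, the peak had 12 and 12 fragments at 30 min, 5 in 1 h replicate 1 and no call in 1 h replicate 2. In an intron of Cd180 (chr13:102700889-102700978), a surface receptor of B cells related to Toll-like receptors, it had 19 and 15 fragments at 30 min and no call at 1 h. A region open in all 8 lists lay 392 bp from it, and the part of that open chromatin in the calls was not tested. That both lists of 30 min, and not both of 1 h, held a call was fixed by the choice of regions. The other 6 strongest of this class had 7 to 12 fragments at 30 min. They lay in introns of Tpte, Exoc3l2 and Nelfb (a subunit of the elongation factor NELF) and between genes. For those between genes the nearest coding start sites were far, 37207 bp away at Ypel2, 34585 bp at Arhgap27 and 41350 bp at Eapp. The region in Exoc3l2 was 455 bp from a region open in all 8 lists.

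Of the strongest regions that qualified at 1 h, the intron of N4bp1 (chr8:86812265-86812379) held the highest, with 19 and 13 fragments at 1 h and no call at 30 min. An intergenic region 114342 bp upstream of the pseudogene Scp2-ps1 (chr3:155400058-155400139) had 10 and 11 fragments at 1 h, 5 in 30 min replicate 1 and no call in 30 min replicate 2. The choice of regions fixed that both lists of 1 h, and not both of 30 min, held a call. The remaining 6 had 9 to 12 fragments at 1 h. They lay in introns of Naaladl2 and Gm48112, 3759 bp upstream of Retnlg (a resistin-like secreted protein) and, for the rest, far between genes. The nearest start sites of the rest were 61509 bp away at Neil3 (a DNA glycosylase), 63178 bp at Pcdh1 (a protocadherin) and 216983 bp at Gm13471.

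Of the regions found in all 4 lists, the strongest lay in an intron of Pnisr (chr4:21865319-21865436), with 10 and 9 fragments at 30 min and 10 and 8 at 1 h. The region upstream of Fut7 (chr2:25413548-25413673), a fucosyltransferase that makes selectin ligands, had 7 and 10 fragments at 30 min and 8 and 10 at 1 h. Neither differed between the times by more than its replicates did. The region 719 bp from the start site of Tmem161a (chr8:70171627-70171749) had more fragments than any other of the strongest, with 15 and 15 at 30 min and 21 and 29 at 1 h, higher in both 1 h libraries. It lay 111 bp from a region open in all 8 lists, and the part of that open chromatin in these calls was not tested. The other 5 had 5 to 14 fragments. They lay in introns of Zfp800 and Casz1 (a zinc finger transcription factor), 5276 bp upstream of Ccdc194 and, for the rest, farther between genes. The nearest start sites of the rest were 25103 bp away at Gm26779 and 240393 bp at C430019N01Rik.

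**Figure D4:**
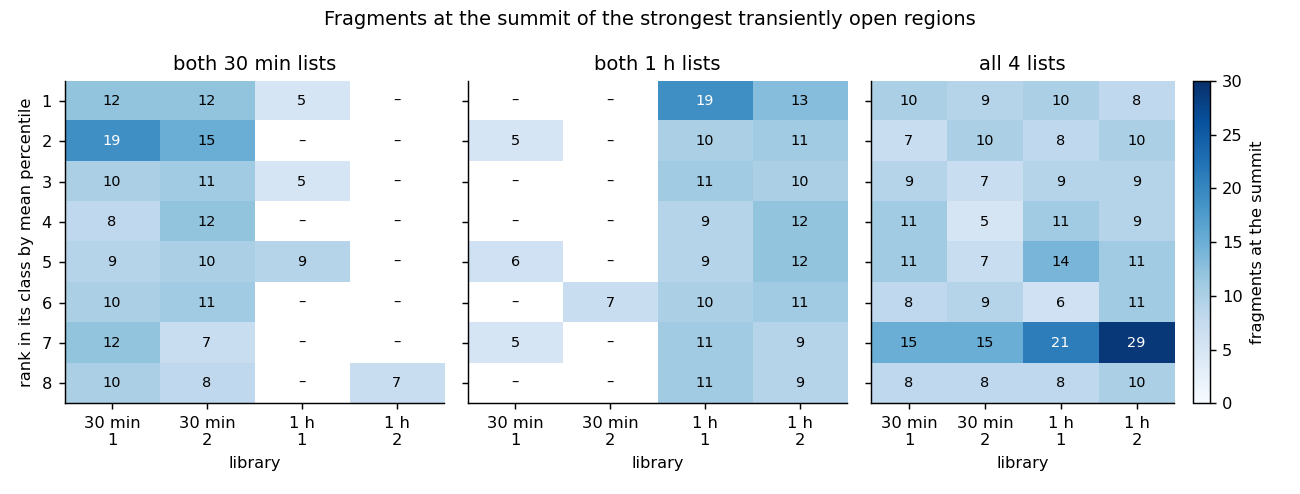
Fragments at the summit (number and shade) in the 30 min and 1 h libraries (x axis) for the 8 strongest transiently open regions of each class (y axis, rank by mean percentile), with a dash where no peak was called. Values are mostly 5 to 12, and the highest is 29, at Tmem161a in 1 h replicate 2.

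Whether strength differed between 1 h and 30 min could be tested only for the members called in all 4 lists. The rule did not use that difference for them, but needing a call at both times favours weak regions of similar strength at both. The 874 and 1287 regions that qualified at 1 time alone lacked a call in at least 1 of these lists and had no part in the test. limma on normal scores of the rank of the fold, over 62218 regions with a peak in these 4 lists, called 0 higher and 0 lower at 1 h at a Benjamini-Hochberg adjusted p of 0.01 (0.0% of the regions tested in each direction) and also 0 at 0.05. The smallest adjusted p was 0.369, for all regions and for the 155 transiently open ones among them. At an unadjusted p under 0.05, 6698 regions (10.8%) passed, and 21 of the 155 transiently open regions did, 11 higher at 1 h and 10 lower. With a mean trend and a robust prior, 2 of the 155 passed higher and 0 lower, and on the log2 fold 4 and 6. The median difference of 1 h minus 30 min was 0.067 normal scores in the 155 regions and -0.0064 over all, but its sign rested on single libraries: it was -0.047 without 30 min replicate 1, 0.014 without 30 min replicate 2, 0.196 without 1 h replicate 1 and -0.028 without 1 h replicate 2. With 2 libraries a group, a p that misses the threshold does not show that strength stayed the same. In simulated data with 200 regions shifted, the test at 0.01 recovered 0 of them at a shift of 1 or of 2 normal scores and 174 at 3. The 0 calls therefore cannot decide whether shifts of 1 or 2 normal scores were present.

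Transiently open regions lay mostly in introns and between genes. By the position of the summit, 56.4% were in introns, 36.7% were intergenic, 4.10% were in non-coding parts of exons and 2.72% in coding exons. Over all regions these shares were 51.3%, 40.5%, 6.09% and 2.15%. A start site lay within 1 kb of 356 regions (15.4%, Clopper-Pearson 95% interval for counting error 13.9% to 16.9%), against 17.7% of all regions, 29.8% of those in all 8 lists and 12.7% of those that opened and stayed open. Within 500 bp the share was 8.68% against 13.3% of all regions, and within 2 kb 22.2% against 23.4%. Within 1 kb the share was 18.2% in the 30 min class, 13.2% in the 1 h class and 17.4% in regions of all 4 lists. It was 16.2% in regions of the crossed rule alone and 12.4% in those with a peak in exactly 2 lists. The median distance to a start site was 10318 bp (9857 bp over all regions).

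**Figure D5:**
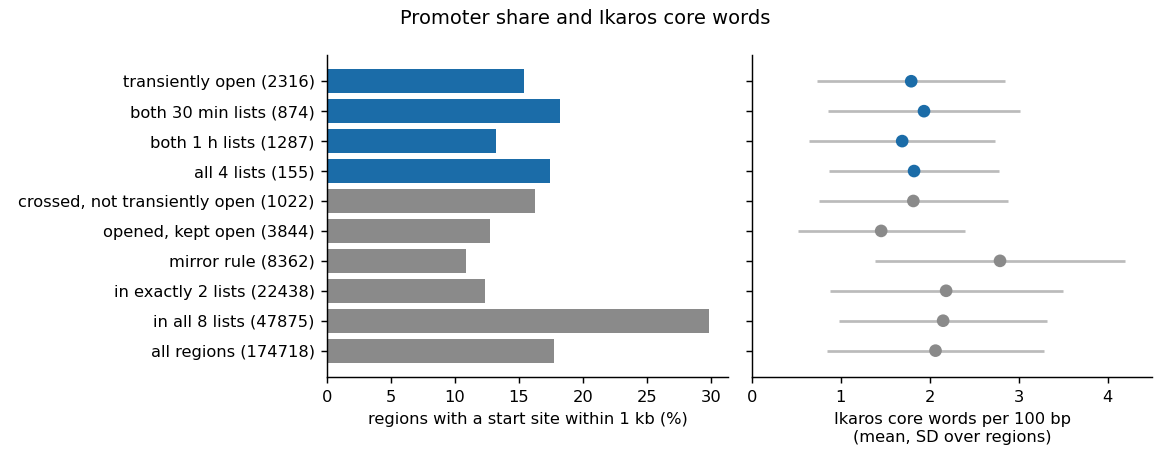
Left, share of regions with a start site within 1 kb (x axis, %). Right, Ikaros core words per 100 bp (x axis, mean with the SD over regions), for the transiently open regions and their 3 classes (blue) and for the sets compared (grey, numbers of regions in parentheses). The transiently open regions are at 15.4% and 1.79 words. The regions of the reverse pattern (mirror rule), most of which qualified at 0 h alone, are at 10.8% and 2.79 words.

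The distance to chromatin that was open throughout was near that of other regions. A region with a peak in all 8 lists was within 500 bp of 384 transiently open regions (16.6%, against 13.8% of all regions and 14.9% of those that opened and stayed open) and within 5 kb of 44.2% (38.7% of all regions). By chromosome, the share of regions that were transiently open ran from 0.865% on X to 1.64% on 18, with none of the 81 regions on Y. The median gap from one transiently open region to the next was 223947 bp, against 231531 bp from a region of any kind to the nearest transiently open one.

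The sequence of the 200 bp around the summit was close to that of all regions in most measures. The 4 Ikaros core words came to 1.79 ± 1.06 per 100 bp (SD over 2316 regions), against 2.06 ± 1.22 over all regions. The value was 1.93 in the 30 min class, 1.69 in the 1 h class and 1.82 in regions of all 4 lists. In regions of the crossed rule alone it was 1.81, and in those with a peak in exactly 2 lists 2.18. It was 2.79 in regions of the reverse pattern and 1.45 in those that opened and stayed open, so the mean of transiently open regions lay between these. The SDs give the spread over regions and not the error of a mean, and the differences were not tested. Of the 8362 regions of the reverse pattern, 6226 qualified at 0 h alone and 47 at both 0 h and 2 h, so 2.79 is not a value for regions that closed briefly. GC content was 48.7% ± 7.56 (SD) against 50.1% ± 7.92. More than 50% of the window was masked repeat in 20.3% of these regions and in 15.3% of all. This share was 22.8% in regions of the crossed rule alone and 18.4% in those with a peak in exactly 2 lists.

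Words of other factors were looked for on both strands in the same windows. The E-box CANNTG was in 73.4% of transiently open windows and 72.8% of all, CACCC of KLF and SP factors in 43.9% and 43.0%, the Forkhead word TGTTTAC in 2.59% and 2.62%, the Runt word TGTGGTT in 11.1% and 11.7%, and the AP-1 word TGANTCA in 8.03% and 8.14%. The CTCF word was in 1.68% against 4.39%, and the nuclear receptor word AGGTCA in 13.9% against 11.8%. The estrogen response element was found in 1 window of a transiently open region, and the SRF CArG box in 1.04% against 0.937%. A match is a description and not a bound site.

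Genes near transiently open regions were counted by a start site within 20 kb. Of 21911 protein-coding genes, 1596 (7.28%) had at least one such region, 1501 of them exactly 1, 91 had 2 and 4 had 3. The 4 were Suox (a sulfite oxidase) and Ikzf4 (an Ikaros family member), which lie side by side and share 2 regions, Cbx7 (a Polycomb protein) and Gm21976. The number of regions of any kind within the same distance was 10, 13, 16 and 22. Near Suox and Ikzf4 the 4 regions had 4 to 7 fragments, and near Cbx7 the 3 had 6 to 10. Of the many genes with 2, Tcaf2 had the fewest regions of any kind (3), with peaks of 5 to 8 fragments.

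Among 17 transcription factors of the B lineage, 6 had a transiently open region within 20 kb, where 7.28% of coding genes did. They were Foxo1, a driver of recombination gene expression, with 2 regions, and Bcl6, Irf8, Klf2, Spi1 and Spib with 1 each. Upstream of Foxo1, at 10451 bp (chr3:52257800-52257934), the peak had 8 and 7 fragments at 30 min, 6 in 1 h replicate 1 and no call in 1 h replicate 2. At 6486 bp (chr3:52261781-52261934) it had 7 and 9 fragments at 30 min, no call in 1 h replicate 1 and 14 in 1 h replicate 2, the highest of the 4. Calls at 1 h were thus split between the replicates in both.

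Spi1 encodes PU.1 and Spib a related ETS factor. The region in an intron of Spi1 (chr2:91083530-91083610) had 12 and 11 fragments at 1 h, and that in an exon of Spib (chr7:44526326-44526402) had 11 and 9 at 30 min. The Spi1 peak was at a mean percentile of 5.33 in its lists, with folds over the local background of 4.07 and 4.08. A region open in all 8 lists lay 298 bp from it. Bcl6, a repressor that protects pre-B cells, had a region in an intron with 5 and 8 fragments at 1 h, at percentiles 10.9 and 41.3. The region 19575 bp from Irf8 had 10 and 9 fragments at 1 h and the one near Klf2, a factor of quiescence, 8 and 7 at 30 min. The 17 genes had 213 regions of any kind within 20 kb, of which 7 were transiently open (3.29%, against 1.33% of all regions). The list is short and was not tested, and 1 of the 17 genes was left when qualifying peaks needed a −log10 q of at least 5.

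Of 30 immediate early genes, which respond to stimuli without new protein, 6 had a transiently open region within 20 kb. These were the orphan nuclear receptors Nr4a1, Nr4a2 and Nr4a3, the transcription factor Egr1, Ier2 and the antiproliferative Btg2, and 7 of the 373 regions near the list were transiently open (1.88%, against 1.33% of all regions, as 6 of 30 genes stands against 7.28% of coding genes). With the stricter q, 2 of the 30 genes were left. The region 4074 bp upstream of Egr1 was in all 4 lists, with 28 and 18 fragments at 30 min and 15 and 13 at 1 h, and both 30 min values were above both 1 h values. Its difference of 1 h minus 30 min was -1.20 normal scores, with an unadjusted p of 0.0058 and an adjusted p of 0.371 by limma, which does not pass. With a mean trend and a robust prior the unadjusted p was not under 0.05 either. Of 2 regions upstream of Nr4a3, the one at 374 bp had 19 and 15 fragments at 30 min, 14 in 1 h replicate 1 and no call in 1 h replicate 2. The one at 825 bp had 16 and 12 fragments at 30 min, no call in 1 h replicate 1 and 17 in 1 h replicate 2. Each thus lacked a call in 1 of the 1 h lists, and not in the same one.

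At Ier2, 885 bp upstream, there were 16 and 14 fragments at 1 h. At Nr4a2 there were 8 in 30 min replicate 2 and 6 and 8 at 1 h, at Nr4a1 7 and 4 at 30 min, and at Btg2 7 in 30 min replicate 2 and 9 and 6 at 1 h. The peaks at Egr1, Ier2 and Nr4a3 held many fragments for their rank. The mean percentile was 8.53 at Egr1, 4.45 at Ier2, and 2.93 and 14.4 at Nr4a3, where a region open in all 8 lists lay 152 bp, 200 bp, 467 bp and 174 bp away, in that order. The part of that neighbouring open chromatin in these calls was not tested.

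For the remaining lists too, 7.28% of coding genes and 1.33% of all regions are the shares to read the counts against. Sterol synthesis genes, a check for a known response to 4-OHT-like drugs, had 2 of 20: Mvk, an early enzyme of the pathway, with 12 and 10 fragments at 30 min and 9 in 1 h replicate 1, and Mvd with 8 and 10 at 30 min, although the Mvd region lies in Cyba. Of 11 estrogen receptor targets, which 4-OHT could reach through the native receptor, none had one. NuRD subunit genes had 2 of 13, with 2 regions at Gatad2a (4 to 9 fragments) and 1 at Hdac1 (7 in 30 min replicate 1, 8 and 6 at 1 h), which makes 3 of the 119 regions near the list (2.52%).

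Genes of the pre-B cell receptor and its signalling had 1 of 11. This region, with 16 and 15 fragments at 30 min and no call at 1 h, is 5549 bp from a start site of Cd79a, a signalling chain of the receptor, and lies at the start site of Arhgef1 (chr7:24902906-24902969), 18 bp from it. The 11 genes of the IL-7 receptor and JAK-STAT5 pathway had none, among 154 regions near them. Of 17 genes that the study names as repressed, Plekho2 had 1, 19061 bp away, with 6 and 6 fragments at 30 min and no call at 1 h.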

How the data were processed

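ATAC-seq was measured in 8 libraries. The authors aligned reads with BWA 0.7.17 (nf-core workflow), shifted ends for Tn5, kept fragments up to 120 bp and called peaks in each library with MACS2 2.1.2 without a control. The methods text names GRCh38, but the labels give GRCm38 (mm10) and every region lies inside its 21 chromosomes. The deposited values are the fold ratio at the summit over the local background, the −log10 p-value and the −log10 q-value. They are not scaled between libraries. The lowest −log10 q in the lists was 1.3. Fragments and background were recovered from fold and p under the caller's Poisson model, and a whole number fitted 100% of the peaks (tolerance 0.001 in −log10 p).

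Peaks overlapping by any amount were merged, and a region took its highest peak in each list. Differences between 1 h and 30 min were fitted with limma 3.58.1 (R 4.3.3), tested on simulated data, without a replicate block. Genes came from GENCODE M21 (basic set). Regions named are the 8 strongest of each class by mean percentile, those within 20 kb of a start site of a listed gene and those at the 5 coding genes with most regions. Regions and gene lists were chosen with earlier results of these data known. The alternatives are listed in the closing section. Intervals cover counting error only.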

Additional observations from a re-analysis of the deposited data

How the results depend on the processing

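A −log10 q of 5 or more for each peak gave 1577 transiently open regions, cutting the lists to the same length 2125, summit windows of 100 bp 2605, and no 0 h or 2 h peak within 500 bp 1628, all within 1.5 times of 2316. The q cut behind the 1577 also removed weaker peaks of 0 h and 2 h, so some of these regions may hold a called peak there. With every 0 h and 2 h peak kept, asking for that q of the qualifying peaks alone left 405. Without 1 library it ranged from 2760 (0 h replicate 2) to 10432 (1 h replicate 2), with 3189 without 0 h replicate 1, 5883 and 9417 without 30 min replicates 1 and 2, 7208 without 1 h replicate 1, and 4668 and 4032 without 2 h replicates 1 and 2. Leaving out a list removes a condition, so the number can only rise.

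The median percentile of 19.7 was 36.4 in regions with a −log10 q of at least 5 and 18.2 to 20.1 without 1 library. The promoter share of 15.4% was 8.68% within 500 bp (13.3% of all regions) and 22.2% within 2 kb (23.4%). Core words per 100 bp moved to 1.78 and 1.74 in other windows. In the lists not used, choosing with a −log10 q of at least 5 gave 13.5%, 24.1%, 30.6% and 34.9% in replicate 2 and 26.7%, 43.8%, 48.5% and 46.4% in replicate 1, from 0 h to 2 h. With qualifying peaks of that q, listed genes with a region nearby fell to 1 for B-lineage factors, 2 for immediate early genes, 1 each for sterol and NuRD genes and 0 for the pre-B cell receptor and repressed lists. With the replicate block, limma called 0 regions between 1 h and 30 min, and also 0 with the pairing crossed. Same-numbered libraries of 30 min and 1 h deviated from their group means with a correlation of 0.0159 over the 62218 regions tested. The libraries of 0 h and 2 h were not part of this, and it does not settle whether same-numbered libraries shared a culture or a batch. A mean trend with a robust prior called 1, which was not a transiently open region. The other alternatives, each library left out included, called 0 (range 0 to 0). The mean trend, the crossed block, the fragment scale, and the q filters on lists not used and on gene lists were chosen after seeing the data. Peaks of 4 to 7 fragments are at or little above the lowest count called, so absence from a list may be a missed peak. The part of depth was not tested.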
